A study of Mus musculus with 11 samples.

Results

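Translation initiation factors are the proteins that bring a ribosome, an mRNA and the initiator tRNA together at a start codon. The family described here holds every gene whose symbol begins with Eif and a digit from 1 to 6, with 10 pseudogene symbols left out, which gave 56 of the 55421 genes in the deposited tables. The symbol rule reads no measured value, but the family was chosen by the rise of Eif3j2 in knockout libraries, so the values of Eif3j1, Eif3j2 and their sum are given as a description without a test.

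The libraries hold ribosome-bound RNA pulled down from whole mouse cerebellum at postnatal day 56, 1 library per animal. In 4 KO animals, of genotype Pcp2Cre;Tie2flox/flox;Rpl22HA/HA, Cre recombinase acts on floxed alleles of Tie2, the angiopoietin receptor encoded by Tek, and on the tagged ribosomal protein Rpl22. The 7 WT animals, of genotype Pcp2Cre;Rpl22HA/HA, carry the same Cre and the same tag with no floxed Tie2. The Cre is constitutive and driven by Pcp2, a gene of Purkinje cells, so the tag marks ribosomes of these neurons, and the comparison asks how their ribosome-bound RNA differs when Tie2 is deleted there. The labels give 3 batches, with 2 KO and 1 WT in batch 1, 1 KO and 1 WT in batch 2, and 1 KO and 5 WT in batch 3. In pulled-down RNA of this kind, fewer cells of a type and less RNA per cell cannot be told apart.

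Initiation runs through a chain of complexes. eIF2 carries the initiator tRNA to the small ribosomal subunit and is recharged with GTP by the exchange factor eIF2B, eIF1 and eIF1A keep the scanning ribosome selective for its start codon, and eIF3 forms a scaffold on the small subunit. eIF4E binds the mRNA cap and joins eIF4G and the helicase eIF4A, while eIF5 and eIF5B complete the joining of the subunits. Stress kinases phosphorylate eIF2 alpha, which turns eIF2 into an inhibitor of eIF2B, and neurons use this switch and the cap-binding step to control protein synthesis at synapses.

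The start regions of eIF2 and eIF2B genes are shown because of their test results, which were seen first. In eIF2, 2 of 4 subunit genes passed the test, in opposite directions. Of 5 eIF2B subunit genes, 3 passed it as lower in KO. Over all genes tested, 10.9% were called higher and 13.4% lower. RefSeq promoter sequences of the build GRCm38.p6 were cut to 100 bases before and 20 after each start. The first pair below belongs to eIF2B genes that were lower in KO, the next pair to the eIF2 alpha and beta genes, and the last pair to eIF2B genes that did not pass the test.
Eif2b1: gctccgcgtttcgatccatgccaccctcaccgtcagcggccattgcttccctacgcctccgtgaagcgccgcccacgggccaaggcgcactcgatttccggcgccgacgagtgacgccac
Eif2b2: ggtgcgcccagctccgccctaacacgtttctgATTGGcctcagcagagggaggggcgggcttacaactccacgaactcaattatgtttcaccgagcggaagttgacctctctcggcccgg
Eif2s1: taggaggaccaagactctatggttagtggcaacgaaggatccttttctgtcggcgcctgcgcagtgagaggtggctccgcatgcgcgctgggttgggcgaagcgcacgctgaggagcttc
Eif2s2: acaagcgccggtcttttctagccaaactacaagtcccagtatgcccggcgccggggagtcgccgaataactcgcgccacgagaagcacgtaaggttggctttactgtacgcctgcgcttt
Eif2b4: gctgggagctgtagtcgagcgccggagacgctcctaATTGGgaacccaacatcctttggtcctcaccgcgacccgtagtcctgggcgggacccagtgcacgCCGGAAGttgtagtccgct
Eif2b5: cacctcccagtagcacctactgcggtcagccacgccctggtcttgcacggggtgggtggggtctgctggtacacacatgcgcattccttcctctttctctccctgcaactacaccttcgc
The Eif2b1 window is chr5:124579112-124579231 on the minus strand and the Eif2b2 window chr12:85219381-85219500 on the plus strand. The Eif2s1 window is chr12:78861972-78862091 on the plus strand and the Eif2s2 window chr2:154892887-154893006 on the minus strand. The Eif2b4 window is chr5:31193120-31193239 on the minus strand and the Eif2b5 window chr16:20498717-20498836 on the plus strand. Capitals mark matches to any of the motifs searched on both strands: CCGGAAG, bound by ETS-family factors, CCAAT, bound by NF-Y, and CACGTG, an E-box that reads the same on both strands. None of these motifs overlaps another in the windows shown. CCAAT was found on the opposite strand, printed as ATTGG, with its first base at -68 in Eif2b2 and at -64 in Eif2b4, and CCGGAAG at 2 in Eif2b4, counting from 1 at the start. Of 57 windows of 44 members with an entry, 12 held CCGGAAG (21.1%), 11 held CCAAT (19.3%) and 7 held CACGTG (12.3%), against 5.77%, 20.8% and 3.74% of all 32851 windows of the same length. Of 11 called members with an entry, 3 held CCGGAAG, 3 CCAAT and 1 CACGTG, against 7, 8 and 6 of the 33 others. The windows of all genes were not limited to genes tested here. A match is a description of the letters and not of a bound factor. Eif2b3 is named only.

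The libraries held 2.58 to 4.20 M reads in genes in KO and 4.09 to 5.14 M in WT. Members took 0.733% ± 0.0133 of these reads in KO and 0.718% ± 0.0291 in WT (SD, n = 4 and 7). As a mean within batches, this share differed by -0.0025 percentage points in KO minus WT, so the higher KO mean was not seen within batches. Tek, the targeted gene, had 0, 7, 0 and 14 reads in KO F371, M374, M390 and M456, against 0 to 40 reads per library in WT, so it did not check the labels at this depth. A log2 score of how far Purkinje markers exceeded granule cell, astrocyte and oligodendrocyte markers in CPM (counts per M reads, TMM-scaled) was 2.72 ± 0.66 in KO and 3.10 ± 0.43 in WT, and is called purity here. Within batches it was -0.64 in KO minus WT on average, and the KO mean was below the WT mean in every batch. KO M390 stood apart from the other KO libraries, with 4.20 M reads and a score of 3.48, near the 4.34 M reads and score of 3.60 of its batch partner WT M386. Tek had 0 reads in both, so the genotype label of KO M390 could not be checked from these reads, and every KO mean and call that includes it rests on that label. The other 3 KO libraries held 2.58 to 3.40 M reads. Of the marker lists, Purkinje markers had 4 higher and 1 lower in KO of 12 tested, granule cell markers 6 and 0 of 10, astrocyte markers 5 and 1 of 10, oligodendrocyte markers 2 and 0 of 8, microglial markers 3 and 0 of 5, endothelial markers 1 and 0 of 4, interneuron markers 2 and 0 of 4 and choroid plexus markers 2 and 0 of 4, beside 10.9% of all genes higher and 13.4% lower. Summed Purkinje markers ranged from 5150 to 6990 CPM in KO and from 5244 to 6142 CPM in WT, and summed granule cell markers from 506 to 1436 CPM in KO and from 365 to 782 CPM in WT. Summed astrocyte markers ranged from 918 to 1551 CPM in KO and from 937 to 1143 CPM in WT, and summed oligodendrocyte markers from 277 to 896 CPM in KO and from 249 to 645 CPM in WT, and none of the markers listed had 0 reads in every library.

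Eif3j2 had the steepest fitted log2 fold change of the family, while Eif3j1 and the sum of both differed less than several other members. Eif3j encodes a loosely held subunit of eIF3 that sits near the mRNA channel of the small ribosomal subunit, and mice carry Eif3j1 on chromosome 2 and Eif3j2 on chromosome 18. Eif3j2 had 18.9, 25.5, 12.1 and 13.7 CPM in KO F371, M374, M390 and M456, against 0.198 to 1.45 CPM (median 0.925) in WT. The KO libraries all lay far above every WT library, and M390, which resembled WT for many other members, did so too. These values rest on 34 to 86 reads per library in KO and 1 to 6 in WT, where WT F473, M476 and M480 were at or under a floor of 3 reads. The fitted log2 fold change was 4.01 ± 0.46 (SE), and the within-batch log2 ratios of mean CPM + 0.5 were 3.54, 3.14 and 3.57 in batches 1, 2 and 3.

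**Figure D1:**
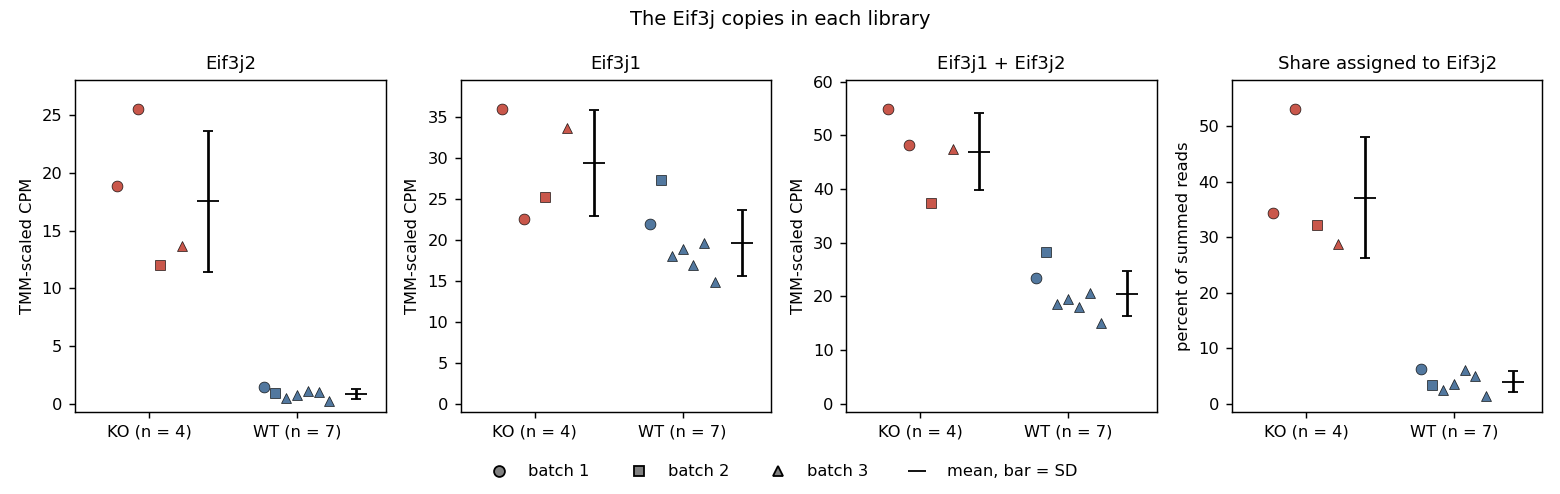
TMM-scaled CPM of Eif3j2, Eif3j1 and their sum, and the percent of summed reads assigned to Eif3j2, in 4 KO and 7 WT libraries. Points are libraries with their batch as the marker shape, bars are the mean and SD, and the KO points of Eif3j2 (12.1 to 25.5 CPM) lie above all WT points.

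Eif3j1 differed less. It had 36.0, 22.6, 25.3 and 33.7 CPM in KO F371, M374, M390 and M456, against 14.9 to 27.3 CPM (median 18.8) in WT. The groups overlapped, since WT M386 lay above both KO M374 and KO M390. Its log2 fold change was 0.51 ± 0.25 (SE), and the within-batch ratio was negative in batch 2 at -0.11.

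The copies are taken as near-identical in sequence, which was not measured here, so the split depends on how reads were assigned. Their sum was therefore read as well. Alignments to several places have a summary line that names no gene. Reads that fit both copies equally may thus be missing from both counts and from the sum. The sum was 46.9 ± 7.22 CPM in KO and 20.5 ± 4.24 CPM in WT (SD, n = 4 and 7), with 54.8, 48.1, 37.3 and 47.4 CPM in KO F371, M374, M390 and M456 and 15.1 to 28.2 CPM (median 19.5) in WT. The groups did not overlap on the summed scale either. The log2 fold change of the sum was 1.08 ± 0.22 (SE), with within-batch ratios of 1.12, 0.40 and 1.34, and it was 0.61 with the library total as a covariate.

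Reads assigned to Eif3j2 made up 34.4% of the sum in KO F371 (exact 95% interval 27.6 to 41.6%), 53.1% in M374 (45.1 to 61.0%), 32.3% in M390 (25.1 to 40.2%) and 28.8% in M456 (20.8 to 37.9%). In WT the share was 1.32 to 6.19%, and the highest upper bound of a WT interval was 13.5%. Intervals and floors cover counting error only, and these shares are a description, since Eif3j2 was the gene the family was chosen on. The share differed by 30.6 percentage points as a mean within batches. Alignments to several places made up 9.77% ± 0.807 of all alignments in KO and 8.41% ± 0.531 in WT, and their part in the Eif3j values was not tested.

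Genes beside Eif3j2 on chromosome 18 had smaller fold changes. The 5 nearest tested genes on each side, 37.1 to 1350 kb away, had log2 fold changes of -1.07 to 0.83. Of these 10 genes, 3 were called higher and 1 lower, beside 10.9% and 13.4% of all genes, and the nearest on each side was not called. Those that passed the test included Rbm27 and Dcp2 as higher in KO and Ppp2r2b as lower, with edgeR adjusted p values of 0.011, 0.00643 and 0.0078. In batch 2 the log2 ratios of Rbm27 and Dcp2 were -0.02 and -0.05, against the direction of their calls, and that of Ppp2r2b was -0.25.

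Without the Eif3j copies, 50 members could be tested, and 4 were higher and 8 lower in KO at an adjusted p under 0.05 in edgeR's quasi-likelihood test with batch in the model. These 12 are 24.0% of the tested members, beside 24.4% of all 13375 genes tested, and the 4 and 8 stand beside 10.9% of all genes called higher and 13.4% called lower. A share this near the background is not a result about the family as a whole. The median log2 fold change of the members was 0.00, against -0.02 for all genes. KO and WT ranges did not overlap for 7 members (14.0%), against 13.0% of all genes. With the library total or the purity score as a covariate 0 genes of the whole table passed, while 5 and 7 members had an unadjusted p under 0.05.

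**Figure D2:**
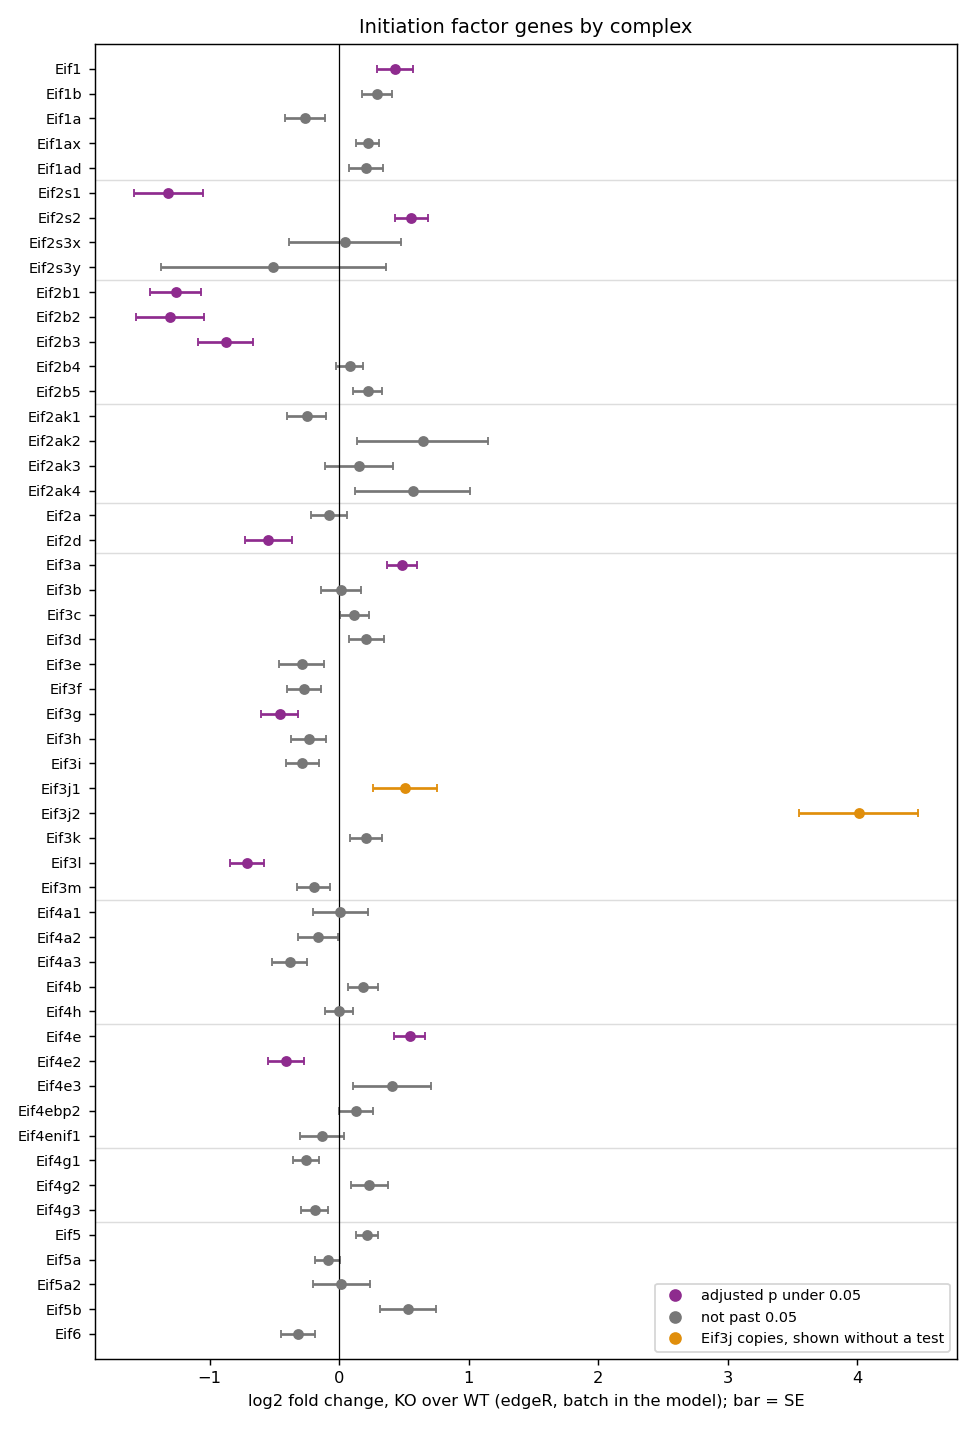
Log2 fold change, KO over WT, of the 52 tested members in order of complex, from the edgeR fit with batch in the model; bars are SE. Purple points passed an adjusted p of 0.05, orange points are the Eif3j copies shown without a test, and the eIF2B rows hold 3 points below -0.8 and a pair near 0.

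The exchange factor eIF2B split by subunit. Eif2b1, Eif2b2 and Eif2b3, which encode its alpha, beta and gamma subunits, fell in KO. Eif2b4 and Eif2b5, which encode delta and the catalytic epsilon subunit, did not pass the test. These 3 of 5 genes stand beside 13.4% of all genes called lower, and eIF2B was singled out after its calls were seen. In people, mutations in any of these genes cause the leukodystrophy vanishing white matter disease.

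Eif2b1 (chr5:124570214-124579131) had 36.6, 44.5, 90.7 and 34.1 CPM in KO F371, M374, M390 and M456, against 92.8 to 125 CPM (median 105) in WT. Every KO library lay below every WT library, though M390 only just did. On the log2 scale this was a difference of -1.26 ± 0.20 (SE, edgeR adjusted p = 0.00206), and the call held in each alternative fit apart from those with the library total or the purity score as a covariate.

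Eif2b2 (chr12:85219481-85226628) had 24.4, 25.8, 87.0 and 46.6 CPM in the same KO libraries, against 87.4 to 135 CPM (median 115) in WT. Again no KO library reached the WT range, and M390 lay at its edge. Its log2 fold change reached -1.31 ± 0.26 (SE, edgeR adjusted p = 0.00425). Eif2b3 (chr4:117019399-117086852) had 51.7, 36.5, 78.9 and 32.9 CPM in KO, against 52.9 to 105 CPM (median 78.4) in WT. M390 sat inside the WT range and the other KO libraries below it. For Eif2b3 the fitted log2 difference was -0.88 ± 0.21 (SE, edgeR adjusted p = 0.00974).

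Eif2b4 had 177, 159, 141 and 194 CPM in KO, against 154 to 180 CPM (median 162) in WT, with a log2 fold change of 0.08 ± 0.10 (SE, edgeR adjusted p = 0.606). Eif2b5 had 145, 159, 171 and 161 CPM in KO, against 112 to 169 CPM (median 131) in WT, with a log2 fold change of 0.22 ± 0.11 (SE, edgeR adjusted p = 0.156). For Eif2b4 the KO libraries spanned the whole WT range, while for Eif2b5 WT M386 alone lay among the KO libraries and the other WT libraries lay below them. Within each library, reads on Eif2b1, Eif2b2 and Eif2b3 numbered 35.0, 33.6, 82.4 and 32.0 per 100 reads on Eif2b4 and Eif2b5 in KO F371, M374, M390 and M456, against 79.6 to 117 in WT. This ratio, chosen after its genes' values were seen, needs no scaling between libraries. KO M390 lay inside the WT range on it and the other KO libraries far below.

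**Figure D3:**
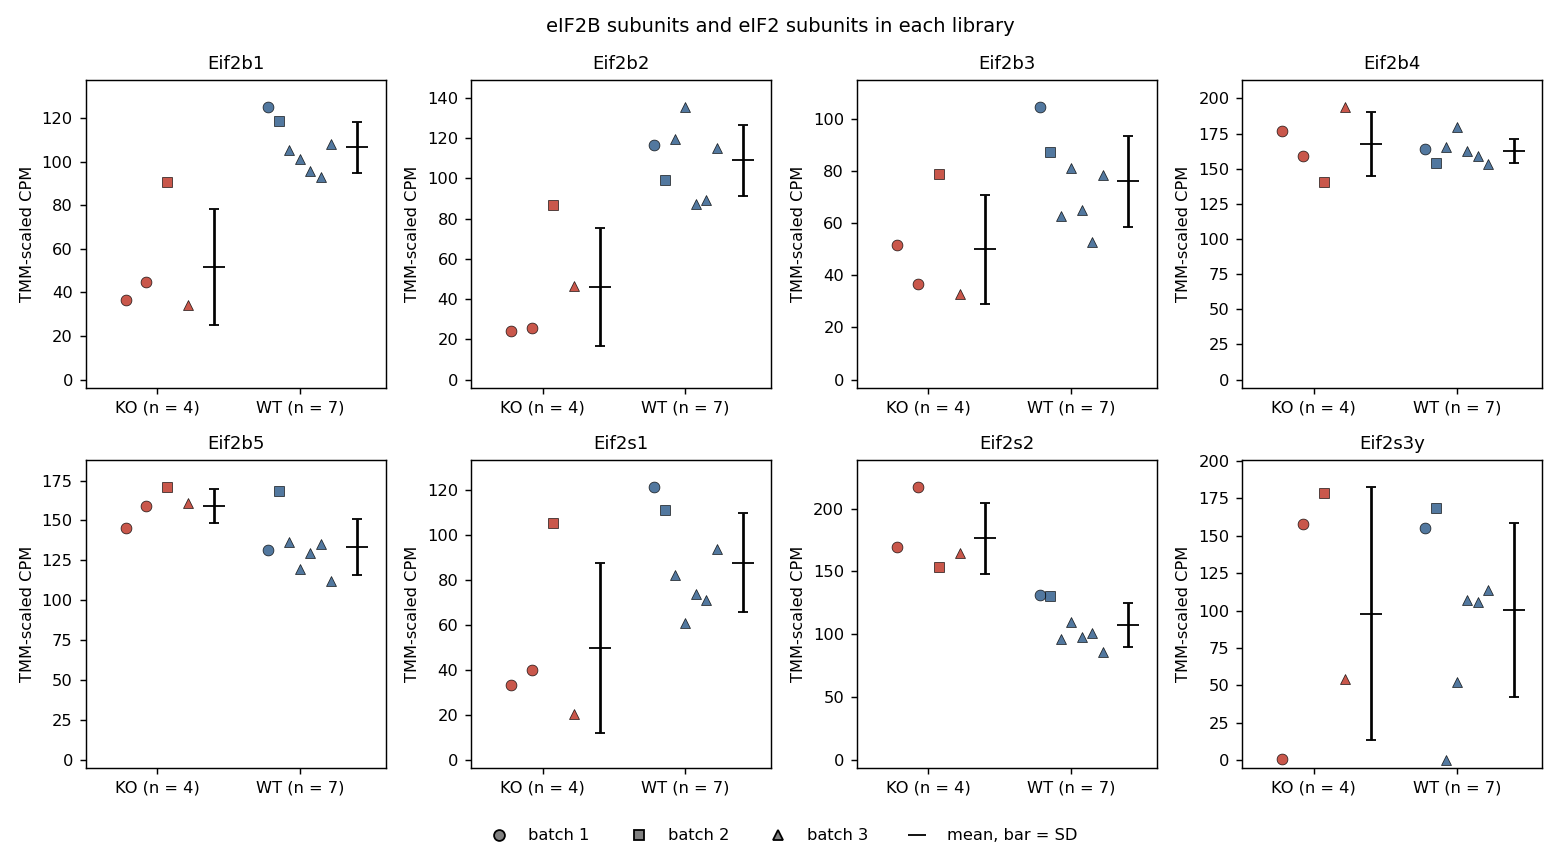
TMM-scaled CPM of 5 eIF2B and 3 eIF2 genes in 4 KO and 7 WT libraries; points are libraries, marker shape is the batch, and bars are the mean and SD. Eif2b1, Eif2b2, Eif2b3 and Eif2s1 have 3 low KO points and 1, the batch 2 library M390, near WT; the points at 0.58 and 0 CPM for Eif2s3y are the animals tagged F.

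The subunits of eIF2 moved apart as well. Eif2s1, which encodes the alpha subunit that stress kinases phosphorylate, fell, and Eif2s2, which encodes the beta subunit, rose. Eif2s1 (chr12:78862072-78887010) had 33.4, 39.8, 105 and 20.5 CPM in KO F371, M374, M390 and M456, against 60.7 to 121 CPM (median 82.3) in WT. The KO libraries other than M390 lay below all WT libraries, and M390 lay within their range. Eif2s1 thus had a log2 fold change of -1.32 ± 0.27 (SE, edgeR adjusted p = 0.00442), with within-batch ratios of -1.71, -0.07 and -1.87.

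Eif2s2 (chr2:154871410-154892906) had 170, 217, 153 and 165 CPM in KO, against 86.1 to 131 CPM (median 101) in WT. All KO libraries lay above all WT libraries. This gave a log2 fold change of 0.56 ± 0.13 (SE, edgeR adjusted p = 0.0072), with within-batch ratios of 0.56, 0.23 and 0.74. Per 100 reads of Eif2s2, the same KO libraries held 19.7, 18.3, 68.7 and 12.4 reads of Eif2s1, against 55.4 to 109 in WT.

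The gamma subunit is encoded by Eif2s3x on the X chromosome and Eif2s3y on the Y chromosome. Eif2s3y followed the animals' tag letters: KO F371 had 2 reads (0.58 CPM) and WT F473 had 0, which allows up to 0.678 CPM, while animals tagged M had 158, 179 and 54.2 CPM in KO M374, M390 and M456 and 52.1 to 168 CPM in WT. Eif2s3x had 14 to 44 reads per library, or 4.02 to 9.50 CPM in KO and 3.26 to 9.95 CPM in WT. Neither passed the test, with log2 fold changes of -0.51 ± 0.87 and 0.05 ± 0.43 (SE, edgeR adjusted p = 0.699 and 0.954), and the estimate for Eif2s3y mixes both tag letters.

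The eIF2 kinases Eif2ak1 (HRI), Eif2ak2 (PKR), Eif2ak3 (PERK) and Eif2ak4 (GCN2) gave no call, with log2 fold changes from -0.25 ± 0.15 for Eif2ak1 to 0.65 ± 0.51 for Eif2ak2 (SE). Eif2ak2 and Eif2ak4 had at most 51 and 53 reads in a library, so their errors are wide. Among factors that deliver tRNA without eIF2, Eif2d fell and Eif2a had a log2 fold change of -0.08 ± 0.14 (SE, edgeR adjusted p = 0.703). Eif2d, which also takes part in recycling of the small subunit, had 108, 81.7, 126 and 61.8 CPM in KO, against 115 to 143 CPM (median 129) in WT. M390 alone of the KO libraries lay inside the WT range. For Eif2d the log2 fold change came to -0.55 ± 0.18 (SE, edgeR adjusted p = 0.0388), with a ratio of 0.13 in batch 2, against the direction of the call. The Eif2d call was lost in 11 of 23 alternative fits, with values as near to 0 as -0.03.

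Of the other 12 tested eIF3 subunits, Eif3a rose, Eif3l and Eif3g fell, and 9 did not pass, with log2 fold changes of -0.29 to 0.21. The 3 calls are 25% of these subunits, near the 24.4% of all genes called, so their count is not a result about eIF3. Eif3l, a subunit of the eIF3 core, had 75.2, 82.0, 110 and 72.3 CPM in KO F371, M374, M390 and M456, against 122 to 148 CPM (median 136) in WT. The groups did not overlap, and M390 was the KO library nearest to WT. Its log2 fold change came to -0.71 ± 0.13 (SE, edgeR adjusted p = 0.00323).

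Eif3a, the scaffold subunit, had 262, 257, 148 and 272 CPM in the same KO libraries, against 132 to 209 CPM (median 181) in WT. M390 lay inside the WT range and the other KO libraries above it. Eif3a had a log2 fold change of 0.48 ± 0.12 (SE, edgeR adjusted p = 0.00928). Eif3g, an RNA-binding subunit, had 91.1, 80.2, 149 and 108 CPM in KO, against 134 to 180 CPM (median 143) in WT. On the log2 scale KO over WT was -0.46 ± 0.14 (SE, edgeR adjusted p = 0.0313), with M390 again inside the WT range, and the call was lost in 7 of 23 alternative fits. Per 100 reads of Eif3a there were 28.7, 31.9, 74.2 and 26.6 reads of Eif3l in KO F371, M374, M390 and M456, against 59.8 to 103 in WT.

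At the mRNA cap, Eif4e rose and its relative Eif4e2 fell. Eif4e, the cap-binding protein of the eIF4F complex, had 218, 184, 175 and 255 CPM in KO, against 134 to 160 CPM (median 146) in WT, with no overlap. Its fitted log2 difference was 0.54 ± 0.12 (SE, edgeR adjusted p = 0.0063). Eif4e2, a cap-binding homologue that does not join eIF4G and acts in repression, had 164, 157, 215 and 104 CPM in KO, against 172 to 209 CPM (median 193) in WT. M390 was above all WT libraries and the other KO libraries below them. Eif4e2 had a log2 fold change of -0.41 ± 0.14 (SE, edgeR adjusted p = 0.0417), with a batch 2 ratio of 0.11 against the direction of the call. It was lost in 12 of 23 alternative fits, where the log2 fold change came as near to 0 as -0.07. Per 100 reads of Eif4e2 there were 133, 117, 81.3 and 244 reads of Eif4e in KO F371, M374, M390 and M456, against 69.1 to 83.3 in WT.

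The eIF4E-binding proteins gave little to compare. Eif4ebp2, the main such repressor in brain, averaged 126 ± 37.0 CPM in KO and 131 ± 23.9 CPM in WT (SD, n = 4 and 7), a log2 difference of 0.13 ± 0.13 (SE, edgeR adjusted p = 0.491). Eif4ebp1 had 0 to 12 reads per library and Eif4ebp3 had 1 read in all libraries together, so neither was tested, and neither were Eif4e1b and Eif2c5, which had 0 reads in every library. Eif4e3 and Eif4enif1, which encodes the eIF4E transporter 4E-T, did not pass the test.

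The eIF1 and eIF1A group, formed by symbol, held 5 genes, of which Eif1 alone was called, as higher, beside 10.9% of all genes called higher. Eif1 had 104, 110, 86.2 and 126 CPM in KO F371, M374, M390 and M456, against 70.6 to 89.6 CPM (median 77.5) in WT. M390 lay inside the WT range and the other KO libraries above it. Eif1 had a log2 fold change of 0.43 ± 0.14 (SE, edgeR adjusted p = 0.0383). This call was lost in 13 of 23 alternative fits, with a log2 fold change as small as 0.03. Eif1ax had 425, 444, 442 and 452 CPM in KO, against 307 to 401 CPM (median 373) in WT. Its groups did not overlap, but its log2 fold change of 0.22 ± 0.09 (SE) missed the threshold (edgeR adjusted p = 0.0784). Eif1 and Eif1b, Eif1a and Eif1ax, and Eif4a1 and Eif4a2 are paralogs, and how their shared sequence affected counting was not analysed here.

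**Figure D4:**
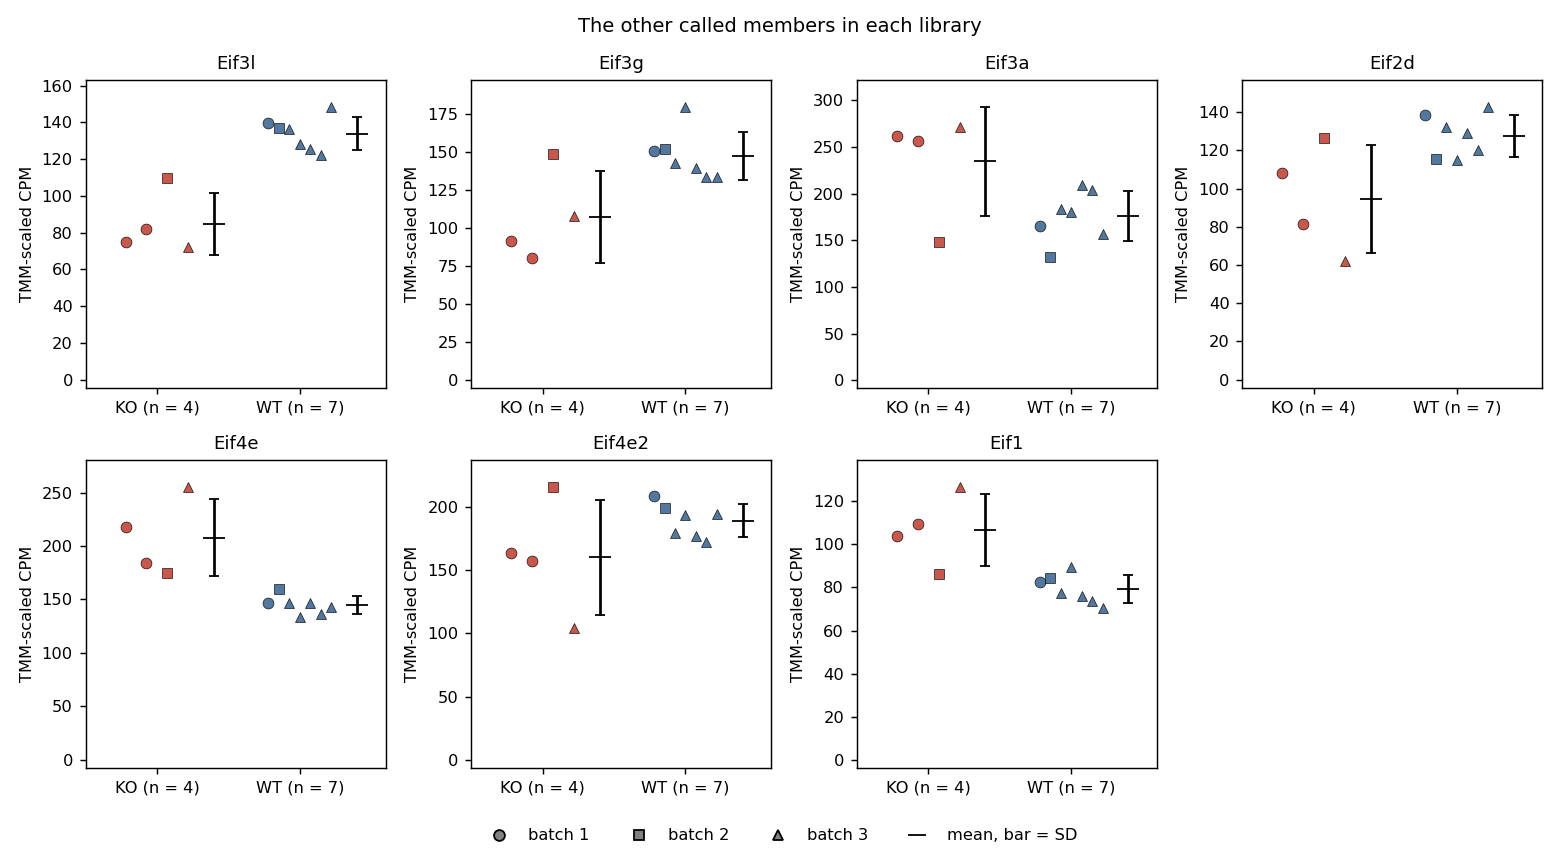
TMM-scaled CPM of the 7 called members outside eIF2 and eIF2B in 4 KO and 7 WT libraries; points are libraries, marker shape is the batch, and bars are the mean and SD. Eif3l and Eif4e separate KO from WT in every library, and in the other panels the batch 2 KO library M390 lies inside the WT range or, for Eif4e2, above it.

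Scanning helicases, eIF4G scaffolds and late factors gave no call. Among the helicase genes, Eif4a3, the exon junction helicase, came nearest, with 61.5, 61.8, 75.4 and 65.1 CPM in KO, against 81.2 to 99.3 CPM (median 87.7) in WT. Its groups did not overlap, at a log2 difference of -0.38 ± 0.14 (SE, edgeR adjusted p = 0.0522). The other helicase and cofactor genes, Eif4a1, Eif4a2, Eif4b and Eif4h, had log2 fold changes of -0.16 to 0.18. Eif4g1, Eif4g2 and Eif4g3 had -0.26 ± 0.10, 0.23 ± 0.14 and -0.19 ± 0.11 (SE). Of the late factors, Eif5b, the GTPase of subunit joining, averaged 292 ± 79.2 CPM in KO and 181 ± 48.4 CPM in WT (SD, n = 4 and 7), with a log2 fold change of 0.53 ± 0.21 (SE, edgeR adjusted p = 0.0803) and ratios of 0.76, -0.41 and 0.88 in batches 1, 2 and 3. Eif5, Eif5a, Eif5a2 and Eif6 had log2 fold changes of -0.32 to 0.21.

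Batch and library set how firmly these calls can be read. Of the 12 called members, 10 kept their sign in all batches, and Eif2d and Eif4e2 did not. In the 7 called members whose groups overlapped, KO M390 was each time the KO library that did not lie beyond the WT range on the called side. Without KO M390, 8 members were higher and 8 lower, and without KO M456 0 and 1. Without WT M379, the WT library of batch 1, the counts were 1 and 1. Over all genes, these fits called 4649 of 13764, 335 of 13760 and 522 of 13282, against 3257 of 13375 with all libraries. The member counts thus moved with those of the whole table. The calls of Eif2s1, Eif2b3 and Eif3a were each lost in 5 of 23 alternative fits. Those of Eif2b2, Eif2s2 and Eif3l were lost in 4 and that of Eif4e in 3. All of these were lost without KO M456, and all but Eif4e without WT M379. The part of depth, purity and batch in these differences was not tested beyond the covariate fits given above.

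**Figure D5:**
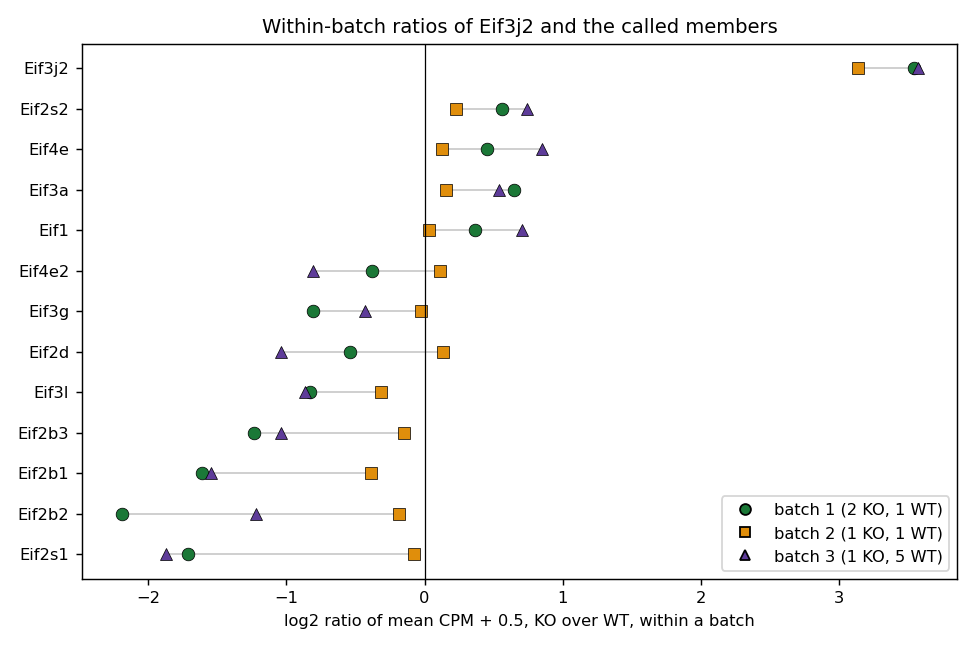
Within-batch log2 ratio of mean CPM + 0.5, KO over WT, of Eif3j2 and the 12 called members; each marker is 1 batch. Batch 2 lies nearest to 0 for each called member, on the other side of it for Eif4e2 and Eif2d, and Eif3j2 lies at 3.14 to 3.57 in all batches.

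Neighbouring steps of translation gave small counts, to be read beside 10.9% of all genes called higher and 13.4% called lower. Of 14 elongation genes tested, Eef1b2, a subunit of the exchange factor of eEF1A, rose and 3 fell: Eefsec, the selenocysteine elongation factor, Eef2, the translocase, and the mitochondrial Tufm. Eef2 averaged 231 ± 41.9 CPM in KO and 321 ± 29.3 CPM in WT (SD, n = 4 and 7), with a log2 fold change of -0.35 ± 0.10 (SE, edgeR adjusted p = 0.0182). Of 9 termination and recycling genes, 3 rose, Etf1, which encodes the release factor eRF1, and Gspt1 and Gspt2, which encode eRF3 proteins, with log2 fold changes of 0.38 ± 0.11, 0.43 ± 0.14 and 0.40 ± 0.14 (SE). Among 14 cap and poly(A) partners Fmr1, which encodes the RNA-binding protein FMRP, rose by a log2 fold change of 0.59 ± 0.14, and among 6 helicase and 5MP genes Dhx36 rose by 0.30 ± 0.09 (SE). Dhps, 1 of a pair of genes for the hypusine modification of eIF5A, fell, with a log2 fold change of -0.54 ± 0.16 (SE).

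Genes of mTOR and MNK signalling, which set the activity of eIF4E and its binding proteins, had 8 of 15 lower and 0 higher, beside 13.4% and 10.9% of all genes, with a median log2 fold change of -0.35 against -0.02 for all genes. None of these calls was kept with the library total or the purity score as a covariate. Mtor, the kinase itself, averaged 61.1 ± 20.2 CPM in KO and 128 ± 24.5 CPM in WT (SD, n = 4 and 7), with a log2 fold change of -0.80 ± 0.15 (SE, edgeR adjusted p = 0.00342). Akt1s1, which encodes the mTORC1 inhibitor PRAS40, and Tsc2, which encodes a repressor of the mTORC1 activator Rheb, fell by 0.91 and 1.14 on the log2 scale, and Mknk1, which encodes an eIF4E kinase, by 1.03. The members that fell thus include both activators and inhibitors of the pathway, and Akt1s1 had ratios of -1.06, -0.66 and -0.92 in batches 1, 2 and 3. In batch 2 the ratios were weaker for Mtor, Mknk1 and Tsc2, at -0.28, -0.27 and -0.08. Another called gene of the list had 0.04 there, against the direction of its call.

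The integrated stress response, which follows phosphorylation of eIF2 alpha, had 2 of 11 tested genes higher and 3 lower, beside 10.9% and 13.4% of all genes, with a median log2 fold change of -0.02. Atf4, its main transcription factor, averaged 259 ± 62.8 CPM in KO and 192 ± 13.0 CPM in WT (SD, n = 4 and 7), with a log2 fold change of 0.51 ± 0.11 (SE, edgeR adjusted p = 0.00664). For Atf4, KO M390 had 179 CPM, inside the WT range of 176 to 208 CPM, and the batch 2 ratio was 0.01. Atf5 had a log2 fold change of 1.13 ± 0.25 (SE, edgeR adjusted p = 0.00685). KO M390 had 29.5 CPM of Atf5, also inside the WT range of 19.8 to 43.0 CPM. Among the genes that fell, Chac1, a glutathione-degrading enzyme, averaged 5.04 ± 4.28 CPM in KO and 26.5 ± 8.62 CPM in WT, with a log2 fold change of -1.97 ± 0.49 (SE, edgeR adjusted p = 0.0103), and Asns, asparagine synthetase, had -0.40 ± 0.11 (SE, edgeR adjusted p = 0.0162). KO M390 lay below the WT range for Chac1 and inside it for Asns.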

How the data were processed

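Ribosome-bound RNA of 11 cerebella was measured. The authors deposited whole-number read counts per gene, 1 table per library, which the submitters' processing notes tie to STAR, HTSeq and the build GRCm38. No source used here gives versions, the strand setting or duplicate removal, so reads of genes that overlap on opposite strands cannot be told apart. The 5 summary lines that name no gene stayed out of totals and tests. In them, reads in no feature made up 9.07% ± 2.09 of alignments in KO and 7.16% ± 0.557 in WT, and ambiguous ones 3.95% ± 0.087 in KO and 4.10% ± 0.191 in WT (SD, n = 4 and 7).

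Genes were filtered with filterByExpr on genotype, scaled with TMM and tested with edgeR 4.0.16 in R 4.3.3 (quasi-likelihood, batch and genotype, 7 residual degrees of freedom), with two-sided p-values adjusted by Benjamini-Hochberg over 13375 genes at 0.05. Each SE is the size of the log2 fold change over the square root of F. Group means are not adjusted for batch. For the sum, Eif3j1 and Eif3j2 were added before the fit. Within-batch ratios used a pseudocount of 0.5 CPM. The fit was also run on counts simulated with known changes in some genes and no difference in purity between groups. Its outcome is not given here and no result above rests on it. Between the most similar libraries of a group, chi-square over its degrees of freedom was 2.40, above sampling noise, so none was treated as a copy of another. The labels name separate animals, and p-values measure the spread between these libraries.

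Positions came from RefSeq (GRCm38.p6), matched by symbol for 56 members. No exon lengths were used here, so levels are not compared between genes and the planned order per length was left out; ratios of reads of different genes compare libraries alone. Members, lists and tests were chosen with earlier results of these data known. Named were Eif3j1, Eif3j2, every called member, the sex-linked genes, up to 4 called genes per list by adjusted p, and called genes among 10 neighbours of Eif3j2, of which 1 is not reported here. Eif2b4, Eif2b5, Eif1ax, Eif4a3, Eif5b and other uncalled members with values, and the read ratios, were chosen after their values were seen. Alternatives were no batch term, DESeq2 size factors and the DESeq2 1.42.0 Wald test, library totals without TMM, no filter on low counts or 1 CPM in 4 libraries, each library or batch 2 left out, animals tagged M alone, the library total or purity score (mean log2 CPM of Purkinje markers minus that of the other lists named, prior count 2) as a covariate, thinning to the smallest library, limma 3.58.1 voom with sample weights, and other thresholds.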

Additional observations from a re-analysis of the deposited data

Results flagged for a closer look

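In 104 groups of libraries, 1 per member and genotype, 11 had a lowest or highest library far from the rest, judged by its gap to the nearest library as a share of the group's range; chance flags about 1 in 20 groups. WT M476 was the library in 7 of them. It was high for Eif1b (a share of 0.599), Eif3g (0.602) and Eif3k (0.597), and low for Eif4a2 (0.651), Eif4b (0.658), Eif4g2 (0.624) and Eif5a2 (0.625). For Eif5a2 it had 72.1 CPM, against 156 CPM in the nearest WT library. KO M390 was low for Eif3a (0.877), with 148 CPM against 257 CPM in the nearest KO library. KO F371 was low for Eif5 (0.831), WT M480 low for Eif3b (0.6004) and WT M379 high for Eif5a (0.587).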

How the results depend on the processing

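The count of members higher in KO, 4 with all libraries, was 8 without batch 2 and 8 at an adjusted p of 0.1, and ranged from 0 without KO M456 to 9 without WT M476 when a library was left out, with 1 without WT M379 and 8 without KO M390 or WT M386. The count lower, 8 with all libraries, was 5 with no batch term, 5 among animals tagged M, 5 at an adjusted p of 0.01, and 1 to 9 when a library was left out, with 1 without KO M456 or WT M379. Calls over all genes moved too, from 335 of 13760 without KO M456 to 4649 of 13764 without KO M390 when a library was left out. They numbered 522 of 13282 without WT M379, 4054 of 13220 without WT M476 and 4643 of 13601 without batch 2. Among animals tagged M they numbered 2213 of 13552, and with no batch term 3353 of 13375. With the library total or the purity score as a covariate both counts of members were 0, as was the count over all genes. The cause of these changes was not tested, and fits on fewer libraries hold less information. The log2 fold change of the summed Eif3j copies was 0.61 with the library total as a covariate and 0.81 to 1.30 when a library was left out. No member that was called changed direction under any alternative. The DESeq2 Wald test kept all 12 calls and gained 2. Eif3j2 had log2 fold changes of 3.62 to 4.36 over 23 alternatives. Batch 2 alone offers 1 library per genotype, and depth limits Eif2s3x, Eif2ak2, Eif2ak4 and WT Eif3j2. No paired analysis was possible because KO and WT animals share no replicate number.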
